A study of Mus musculus with 8 samples.

Results

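The mitochondrial solute carriers of the Slc25 family were followed in AML12 cells, a mouse hepatocyte line, after a short exposure to an extremely weak magnetic field. Members were taken by symbol: every gene whose symbol starts with Slc25a, apart from Slc25a4, Slc25a5, Slc25a20 and a pseudogene copy of Slc25a5. This rule gave 44 members among the 55401 genes listed for each dish. The 4 control dishes stood in an incubator with the stimulator off, and the 4 exposed dishes stood for 1 h in a second incubator of the same model under Opti-ELF-WMF, a field of 10 µT at its peak in pulses of 4 ms whose rate climbed from 1 to 8 Hz and then started again. The incubator and the exposure therefore cannot be told apart. All 8 dishes held the same line, which was established from a mouse with a transforming growth factor alpha transgene, and shared a medium with serum, insulin, transferrin, selenium and the glucocorticoid dexamethasone. The paper's general methods state that control and stimulated cells were prepared together from the same batch. Whether all 8 dishes shared that batch is not stated, and p-values measure only the spread between dishes.

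SLC25 proteins are encoded in the nucleus, imported into the inner mitochondrial membrane by the TIM22 machinery, and exchange metabolites between the cytosol and the matrix. Each carrier has its own cargo: phosphate and nucleotides for ATP synthesis, citrate and malate for the exchange of carbon and reducing power, amino acids, iron, or the cofactors that matrix enzymes need. In hepatocytes they link mitochondria to gluconeogenesis, lipid synthesis, and the urea cycle.

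Levels are TPM, transcript abundances that are corrected for gene length and scaled to a sum of about 1000000 in every dish. Read depth is unknown from such values, so no counting error or detection floor is given. Differences are Opti-ELF-WMF minus control on the log2(TPM + 1) scale, which understates the change of low genes, with limma p-values adjusted over all 12122 tested genes. Of 10 hepatocyte marker symbols 9 were matched and were at or above 1 TPM on average. The symbol Tf had no match, and no other symbol was tried for it. With TPM as deposited, the sum of the 9 ran from 4658 to 4882 TPM in control and from 4953 to 5207 TPM in exposed dishes, without overlap. This sum was not computed under other scalings. Most of that sum was the keratins Krt8, at 2248 and 2361 TPM on average, and Krt18, at 1905 and 2029 TPM, while Ttr averaged 358 and 348 TPM and Apoa1 4.54 and 3.77 TPM. Albumin (Alb) was low for a hepatocyte, from 52.55 to 58.22 TPM in control and from 46.12 to 53.04 TPM in exposed dishes. Of 4 cholangiocyte markers 3 were at or above 1 TPM on average, led by Krt19, and the summed list ran from 1203 to 1291 TPM in control and from 1218 to 1339 TPM in exposed dishes. The 5 fibroblast and 3 endothelial markers were all below 1 TPM on average, with Cdh5 at 0 in every dish, and of 4 immune markers only Cd68 was above that level. Genes of the mitochondrial genome took 8.94% ± 0.34 of TPM in control and 7.04% ± 0.77 in exposed dishes (SD, n = 4), without overlap. The part of these differences in the carriers' values was not tested beyond the scalings of TPM described with them. In RNA from a whole dish, fewer cells that express a gene and less of its RNA per cell cannot be told apart.

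No member of the family passed the test. At an adjusted p under 0.05, limma called 0 of 36 tested members and 0.0% of all tested genes, and the smallest adjusted p of a member was 0.14. At an unadjusted p under 0.05 there were 5 members, 13.9% of those tested, where 15.6% of all tested genes reached that level. Slc25a3 and Slc25a13 were higher in exposed dishes, and Slc25a42, Slc25a47 and Slc25a27 were lower. The 2 higher members made 5.56% against 12.0% of all genes, and the 3 lower members made 8.33% against 3.65%. These shares of all genes depend on the scaling of TPM: under median-of-ratios scaling, upper-quartile scaling and rescaling without mitochondrial genes they were 5.55%, 4.85% and 5.72% higher and 6.23%, 6.61% and 5.58% lower, while the members were 0 higher and 3 lower under each. Only Slc25a42 and Slc25a47 had dishes that did not overlap between the groups, both lower, which is 5.56% of members. Among all tested genes 9.87% were without overlap, with 8.01% higher and 1.86% lower in exposed dishes. The 2 higher members became 0 without control dish 1, control dish 4 or exposed dish 2 and 1 without control dish 3 or exposed dish 3. The members without overlap became 4 without control dish 1, 6 without exposed dish 1 and 5 without exposed dish 4. Fewer dishes make separation easier for every gene, and the matching share of all genes is not given here.

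The deposited files hold no sequence, so promoter sequence from RefSeq on GRCm38.p6 is given for the members these differences turn on, to place them in the genome. Windows from 250 bases before to 50 after a start were found for 33 of the 44 members, and none was found for Slc25a27. GC content of the members' 43 windows ran from 41.7% to 79.0% with a median of 59.0%, and the median of all windows was 52.7%. The motifs, and the stretches to print, were picked after the sequences had been seen, and a match is a description only. The printed bases precede an annotated transcription start and are on the strand of the gene.

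The window of Slc25a3 (chr10:91124060-91124217, minus strand) holds GCGC, then any base, then TGCGC, searched on both strands. This is the type of word that NRF1 binds, a regulator of nuclear genes for mitochondrial proteins. Slc25a3 and Slc25a31 were the 2 members with this word, 6.06% of 33 beside 5.19% of all genes with a window and 12.6% of tested genes. The capitals mark the word.
Slc25a3: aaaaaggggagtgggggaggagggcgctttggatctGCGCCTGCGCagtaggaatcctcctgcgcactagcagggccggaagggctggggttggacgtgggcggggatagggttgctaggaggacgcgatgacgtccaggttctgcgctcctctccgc

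The window of Slc25a13 (chr6:6217174-6217423, minus strand) holds CACGTG, the E-box, in capitals here. This palindrome was in the windows of 7 members (21.2%), beside 8.09% of all genes and 12.1% of tested genes, and the others were Slc25a1, Slc25a14, Slc25a15, Slc25a31, Slc25a33 and Slc25a36.
Slc25a13: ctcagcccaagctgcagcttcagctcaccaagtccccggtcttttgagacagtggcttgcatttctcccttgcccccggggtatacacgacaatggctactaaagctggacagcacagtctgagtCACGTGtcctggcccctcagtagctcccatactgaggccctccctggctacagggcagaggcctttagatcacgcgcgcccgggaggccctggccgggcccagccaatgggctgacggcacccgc

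The word CCAAT, searched on both strands and therefore also read as ATTGG, was in the windows of 18 members (54.5%), beside 41.1% of all genes and 43.9% of tested genes. Slc25a42 (chr8:70212306-70212531, minus strand) holds it 5 times, a number reached or passed by 0.311% of genes with a window and by no other member. For Slc25a47 the stretch before the protein-coding start (chr12:108850879-108851128, plus strand) holds it once, and this stretch lies inside the spans of non-coding transcripts of the same gene. The third stretch is the interval of 162 bases between the gene records of Slc25a29 and Slc25a47, which point away from each other (chr12:108835884-108836045, given on the minus strand, the strand of Slc25a29). It holds the word 2 times and has a GC content of 71.6%. Capitals mark CCAAT or ATTGG.
Slc25a42: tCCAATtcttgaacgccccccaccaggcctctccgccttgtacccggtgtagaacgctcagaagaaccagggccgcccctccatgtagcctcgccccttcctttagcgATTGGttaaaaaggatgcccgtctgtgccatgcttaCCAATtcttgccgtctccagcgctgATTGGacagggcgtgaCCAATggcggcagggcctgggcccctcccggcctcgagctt
Slc25a47, before the coding start: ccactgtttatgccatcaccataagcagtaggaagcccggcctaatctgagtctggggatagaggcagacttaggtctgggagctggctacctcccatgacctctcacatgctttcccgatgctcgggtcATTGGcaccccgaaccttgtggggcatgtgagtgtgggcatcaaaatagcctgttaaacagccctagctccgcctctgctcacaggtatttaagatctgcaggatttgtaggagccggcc
Slc25a29 to Slc25a47: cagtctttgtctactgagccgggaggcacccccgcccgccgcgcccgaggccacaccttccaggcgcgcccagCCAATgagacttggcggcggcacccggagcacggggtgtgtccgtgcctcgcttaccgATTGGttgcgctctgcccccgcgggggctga

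TATAAA was in the windows of 2 members, Slc25a18 and Slc25a21 (6.06%, beside 15.7% of all genes and 8.45% of tested genes), and both were close to 0 TPM in these cells.

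The family spanned a wide range of levels. Of the 44 members, 3 stood above 100 TPM on average, 25 between 10 and 100 TPM, and the 8 others that were tested between 1 and 10 TPM. The remaining 8 did not reach 1 TPM in at least 4 dishes. Among these, Slc25a35 ranged from 0.58 to 1.38 TPM, Slc25a18, Slc25a21, Slc25a34, Slc25a2, Slc25a41 and Slc25a31 stayed at or below 0.14 TPM, and Slc25a54 was listed at 0 in all 8 dishes. The median level of tested members was 21.6 TPM, beside 21.9 TPM for all tested genes. The 8 most abundant members held 72.4% of the TPM of the 44 members.

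In order of level, Slc25a3, Slc25a39, Slc25a24 and Slc25a17 followed each other, the first 3 each above the next without overlap over the 8 dishes. Slc25a17, Slc25a48 and Slc25a10 overlapped with their neighbours. Slc25a10 lay above Slc25a11 in every dish, Slc25a11 overlapped with Slc25a1, and Slc25a1 lay above Slc25a30 in every dish. Slc25a30 overlapped with Slc25a51, which lay above Slc25a22. From Slc25a22 down to Slc25a33 every member overlapped with the next, so the order of neighbours is not resolved. The ends of this run lay apart, with Slc25a22 at 33.49 to 37.03 TPM and Slc25a33 at 9.99 to 13.08 TPM. Below them, Slc25a33 lay above Slc25a14, Slc25a40 above Slc25a42, and Slc25a42 above Slc25a43, and the other tested neighbours overlapped.

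**Figure D1:**
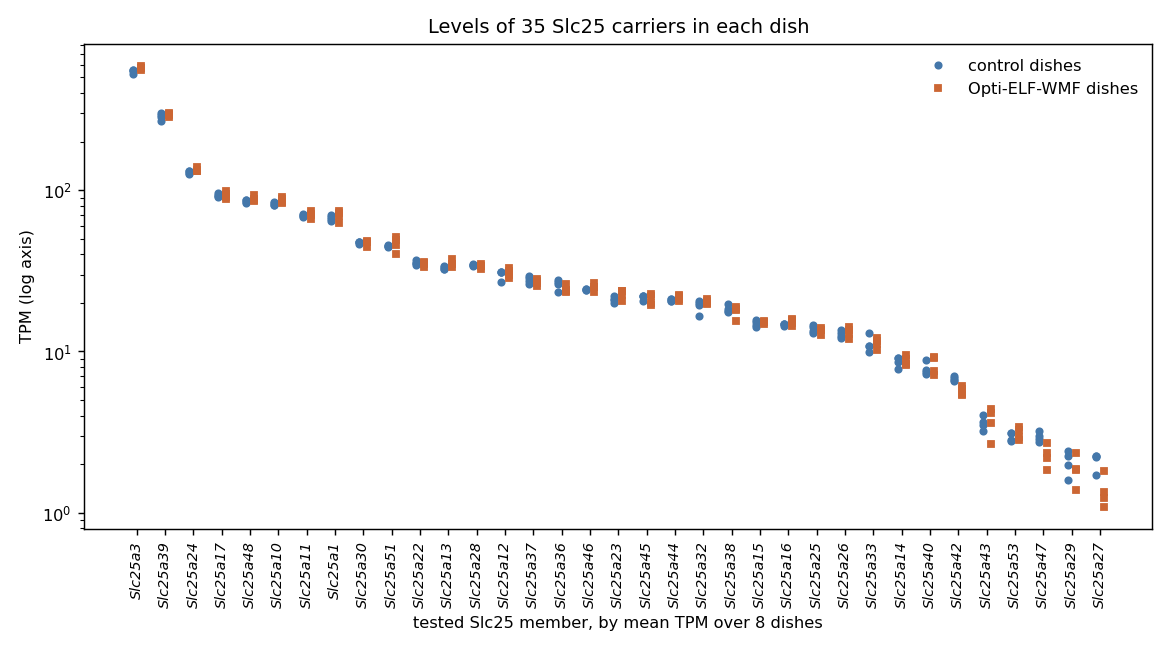
TPM on a log axis for 35 tested members, ordered by mean TPM, with circles for the 4 control and squares for the 4 Opti-ELF-WMF dishes. Slc25a3 stands apart at 524 to 589 TPM, and the control and exposed dishes separate only for Slc25a42 and Slc25a47 at the low end.

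The phosphate carrier Slc25a3, which brings in the phosphate that ATP synthase uses, was the most abundant member. The gene lies on chr10:91116574-91124059, minus strand (GRCm38). It was at 547.48, 554.65, 560.20 and 523.93 TPM in control dishes 1 to 4 and at 588.82, 575.11, 570.93 and 555.25 TPM in exposed dishes 1 to 4. Exposed dishes 1 to 3 were above all controls, but exposed dish 4 lay below control dish 3, so that the groups overlapped. Means were 547 ± 16 and 573 ± 14 TPM (SD, n = 4), a difference of 0.07 on the log2 scale (95% interval 0.004 to 0.13), with an unadjusted p of 0.0392 and an adjusted p of 0.289 by limma.

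The calcium-regulated carriers that exchange ATP-Mg for phosphate, and so set the pool of adenine nucleotides in the matrix, were led by Slc25a24. Slc25a24 was at 126.23, 128.68, 131.83 and 132.37 TPM in control and at 132.10, 133.82, 139.29 and 131.37 TPM in exposed dishes. Slc25a23 was at 20.91, 21.30, 19.87 and 21.94 TPM in control and at 20.44, 22.29, 23.56 and 23.71 TPM in exposed dishes. Slc25a25 was at 13.34, 13.06, 14.50 and 14.24 TPM in control and at 12.65, 13.95, 13.55 and 13.52 TPM in exposed dishes. The groups overlapped for each of these carriers. Their differences were 0.05, 0.09 and -0.04 on the log2 scale, with adjusted p-values of 0.463, 0.447 and 0.789 by limma. Without exposed dish 1 the difference of Slc25a23 was 0.14 (unadjusted p = 0.0157, adjusted p = 0.218 by limma). Of Slc25a23 and Slc25a24 together, Slc25a23 made up 13.9% ± 0.56 in control and 14.4% ± 0.78 in exposed dishes, again with overlap. The other carriers listed under the wider heading of phosphate and adenine nucleotides were Slc25a31, which is known from testis, Slc25a41 and Slc25a54. These were at or near 0. Slc25a41 lies 2056 bases from Slc25a23 on chromosome 17, and Slc25a54 lies 6461 bases from Slc25a24 on chromosome 3, so in each pair of neighbours one gene was near 0 and the other was not.

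Among the carboxylate carriers, Slc25a10 exchanges malate or succinate for phosphate, Slc25a11 exchanges 2-oxoglutarate for malate in the malate-aspartate shuttle, and Slc25a1 exports citrate. Slc25a10 was at 81.10, 83.62, 81.44 and 84.69 TPM in control and at 87.82, 91.12, 83.53 and 84.23 TPM in exposed dishes. Slc25a11 was at 70.56, 67.99, 69.25 and 70.89 TPM in control and at 70.07, 74.24, 66.61 and 71.20 TPM in exposed dishes. Slc25a1 was at 69.87, 65.93, 68.54 and 64.01 TPM in control and at 72.10, 74.56, 68.77 and 62.17 TPM in exposed dishes. All 3 overlapped between groups, and for Slc25a1 exposed dish 4 was the lowest of the 8 dishes while exposed dish 2 was the highest. The differences were 0.07, 0.02 and 0.05 on the log2 scale, and the intervals (-0.009 to 0.141, -0.063 to 0.096 and -0.076 to 0.168) all included 0. Adjusted p-values by limma were 0.384, 0.871 and 0.743. The difference of Slc25a1 depended on single dishes, from 0.01 without exposed dish 2 to 0.10 without exposed dish 4 (unadjusted p = 0.0479, adjusted p = 0.311 by limma). Slc25a11 overlaps Rnf167 on the opposite strand, as Slc25a23 overlaps Crb3, Slc25a25 Naif1, Slc25a26 Lrig1, Slc25a36 Gm16185, Slc25a18 Atp6v1e1 and Slc25a35 Rangrf. Slc25a35, at 0.902 TPM on average, shares 1882 bases with Rangrf, at 13.6 TPM. The strand setting of the counting is not given in the sources used here, so reads of these pairs may not be told apart.

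The aspartate/glutamate carriers Slc25a12 (aralar) and Slc25a13 (citrin) export aspartate from the matrix, and Slc25a13 is the form known from liver. Slc25a13, on chr6:6041218-6217173, minus strand, was at 33.42, 33.77, 32.41 and 32.40 TPM in control and at 34.86, 34.99, 37.18 and 33.50 TPM in exposed dishes. Exposed dishes 1 to 3 lay above all controls, and exposed dish 4 lay just below control dish 2. Means were 33.0 ± 0.70 and 35.1 ± 1.5 TPM, a difference of 0.09 on the log2 scale (95% interval 0.002 to 0.172), with an unadjusted p of 0.0455 and an adjusted p of 0.309 by limma. Slc25a12 was at 31.03, 30.89, 26.90 and 31.30 TPM in control and at 29.88, 31.61, 28.61 and 32.89 TPM in exposed dishes, with an adjusted p of 0.836. The ratio of the paralogs was near even, since Slc25a12 made up 47.6% ± 1.6 of their summed TPM in control and 46.7% ± 2.5 in exposed dishes. The glutamate carrier Slc25a22 was at 34.59, 35.38, 37.03 and 35.28 TPM in control and at 35.92, 33.49, 35.13 and 35.05 TPM in exposed dishes, with a difference of -0.03 on the log2 scale and an adjusted p of 0.774. Its paralog Slc25a18 did not exceed 0.14 TPM, so Slc25a22 carried nearly all of the TPM of this pair.

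Of the carriers for other amino acids and choline, Slc25a48, a choline carrier, was the highest, at 84.29, 83.51, 86.70 and 86.32 TPM in control and 87.21, 93.66, 85.36 and 88.15 TPM in exposed dishes. Its difference was 0.055 on the log2 scale (95% interval -0.019 to 0.128, adjusted p = 0.465 by limma), and the groups overlapped. Slc25a44, which carries branched-chain amino acids, was at 20.9 ± 0.33 TPM in control and 21.6 ± 0.85 TPM in exposed dishes. Slc25a38, which brings in glycine for heme synthesis, was at 18.4 ± 0.85 and 17.7 ± 1.4 TPM. Slc25a15, the ornithine carrier of the urea cycle, was at 14.9 ± 0.63 and 15.2 ± 0.33 TPM, and Slc25a29, a carrier of basic amino acids, was at 2.06 ± 0.36 and 1.86 ± 0.39 TPM. None of these had an unadjusted p under 0.05, and all overlapped between groups.

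Cofactor, nucleotide and glutathione carriers formed the largest group, with all 11 tested. Slc25a39, which brings glutathione into mitochondria, was at 293.33, 270.11, 283.83 and 302.17 TPM in control and at 303.14, 297.69, 294.05 and 284.99 TPM in exposed dishes. Its paralog Slc25a40 was at 8.80, 7.41, 7.66 and 7.21 TPM in control and at 9.09, 7.12, 9.18 and 7.59 TPM in exposed dishes. Slc25a39 thus made up 97.4% ± 0.24 of the pair in control and 97.3% ± 0.31 in exposed dishes, and the adjusted p-values were 0.667 and 0.757 by limma. Slc25a17, which sits in peroxisomes and carries coenzyme A, FAD and NAD, was at 93.22, 90.83, 95.58 and 92.15 TPM in control and at 88.60, 94.30, 98.44 and 91.21 TPM in exposed dishes. The exposed dishes of Slc25a17 held both the lowest and the highest of the 8 values, and the difference was 0.002 on the log2 scale (95% interval -0.077 to 0.082).

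The pyrimidine nucleotide carriers Slc25a33 and Slc25a36 supply the precursors of mitochondrial DNA and RNA. Slc25a33 was at 13.08, 9.99, 10.85 and 10.83 TPM in control and at 11.05, 12.11, 10.22 and 11.64 TPM in exposed dishes. Slc25a36 was at 23.36, 27.10, 27.58 and 26.14 TPM in control and at 23.40, 23.72, 26.10 and 23.98 TPM in exposed dishes. Control dish 1 was the highest of the 8 dishes for Slc25a33 and the lowest for Slc25a36, and the groups overlapped for both. Differences were 0.01 and -0.09 on the log2 scale, with adjusted p-values of 0.966 and 0.471 by limma. Without control dish 1 the difference of Slc25a36 was -0.14 (unadjusted p = 0.0154, adjusted p = 0.236 by limma). Slc25a36 shares 544 bases at 99.6% identity with Gm13217, and reads from the pair could be split, but Gm13217 was at 0.034 TPM. Slc25a40 shares 724 bases at 96.3% identity with Gm5066, which was at 0.066 TPM. The remaining members with matches had shorter ones, some to expressed genes and some to genes near 0. Slc25a51 shares 153 bases at 96.7% identity with Baz1b, which was at 73.8 TPM. Slc25a23 shares 151 bases at 95.4% identity with Rab34, at 88.8 TPM. The effect of these matches on TPM was not tested. Among the other cofactor carriers, Slc25a51 (NAD) was at 45.0 ± 0.49 and 46.8 ± 4.9 TPM and Slc25a32 (folate and FAD) at 19.1 ± 1.7 and 20.3 ± 0.66 TPM. Slc25a16, proposed to carry coenzyme A, was at 14.7 ± 0.26 and 15.2 ± 0.64 TPM, and Slc25a26 (S-adenosylmethionine) was at 12.8 ± 0.62 and 13.1 ± 0.91 TPM.

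Slc25a42, which brings coenzyme A into the matrix, was the member with the smallest p. The gene lies on chr8:70184340-70212305, minus strand, below the printed stretch with 5 CCAAT words. It was at 6.59, 7.09, 6.87 and 6.61 TPM in control and at 5.42, 5.83, 5.40 and 6.10 TPM in exposed dishes. The groups did not overlap, with a gap between 6.10 TPM in the highest exposed and 6.59 TPM in the lowest control dish. Means were 6.79 ± 0.24 and 5.69 ± 0.34 TPM (SD, n = 4), and the difference was -0.22 on the log2 scale (SE 0.059, 95% interval -0.352 to -0.090), with an unadjusted p of 0.00394 and an adjusted p of 0.14 by limma.

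Mitochondrial iron import is served by the mitoferrins Slc25a37 and Slc25a28. Slc25a28 was at 33.82, 34.53, 34.48 and 34.90 TPM in control and at 34.11, 33.69, 32.47 and 34.90 TPM in exposed dishes. Slc25a37, which is best known from developing red cells, was at 26.04, 28.35, 29.20 and 27.20 TPM in control and at 25.51, 27.17, 26.52 and 28.16 TPM in exposed dishes. Both overlapped between groups, with differences of -0.03 and -0.04 on the log2 scale and adjusted p-values of 0.751 and 0.707 by limma. Slc25a28 made up 55.4% ± 1.1 of the pair in control and 55.7% ± 0.99 in exposed dishes.

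The carriers close in sequence to uncoupling proteins are Slc25a30, Slc25a14 and Slc25a27. Slc25a30 was at 47.4 ± 0.69 and 47.2 ± 1.9 TPM and Slc25a14 at 8.68 ± 0.63 and 8.79 ± 0.58 TPM, with differences of -0.007 and 0.02 on the log2 scale. Over all dishes, Slc25a27, also named UCP4 and best known from neurons, had the lowest mean of the tested members, overlapping with Slc25a29. It lies on chr17:43641891-43667214, minus strand, and was at 1.72, 2.26, 2.23 and 2.26 TPM in control and at 1.09, 1.34, 1.23 and 1.81 TPM in exposed dishes. The lowest control, dish 1, was below the highest exposed dish, dish 4, so the groups overlapped by these dishes alone. Means were 2.12 ± 0.27 and 1.37 ± 0.31 TPM, and the difference was -0.40 on the log2 scale (SE 0.116, 95% interval -0.660 to -0.143), with an unadjusted p of 0.00627 and an adjusted p of 0.16 by limma. The level is so low that few reads may stand behind it, and their number is not known.

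Slc25a46, which sits in the outer membrane and takes part in mitochondrial fission and lipid traffic, was at 24.2 ± 0.31 TPM in control and 25.1 ± 1.4 TPM in exposed dishes, with overlap. Of the carriers whose cargo is not settled, Slc25a45 was the highest, from 20.70 to 22.14 TPM in control and from 19.34 to 22.83 TPM in exposed dishes. Slc25a43 was at 3.60 ± 0.33 and 3.71 ± 0.77 TPM, and Slc25a53 was at 2.96 ± 0.18 and 3.11 ± 0.26 TPM.

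Slc25a47, known for its expression in liver, was at 2.87, 3.22, 2.98 and 2.76 TPM in control and at 1.84, 2.69, 2.33 and 2.18 TPM in exposed dishes. The groups did not overlap, although the gap, between 2.69 TPM in exposed dish 2 and 2.76 TPM in control dish 4, was small beside the spread. At this level few reads may stand behind the values, and their number is not known. Means were 2.96 ± 0.20 and 2.26 ± 0.35 TPM, a difference of -0.28 on the log2 scale (SE 0.094, 95% interval -0.496 to -0.074), with an unadjusted p of 0.0134 and an adjusted p of 0.194 by limma. The GENCODE M21 record of this gene (chr12:108836046-108856815, plus strand) joins 5 transcripts. The 2 protein-coding ones start 15083 bases downstream of the first of 3 non-coding ones, and a TPM for the gene cannot tell them apart. Its neighbour Slc25a29 (chr12:108825873-108835883, minus strand), across the printed interval, was at 2.25, 1.98, 1.60 and 2.43 TPM in control and at 1.86, 1.83, 1.39 and 2.35 TPM in exposed dishes. Those groups overlapped, with a difference of -0.10 on the log2 scale (95% interval -0.387 to 0.180) and an adjusted p of 0.75.

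**Figure D2:**
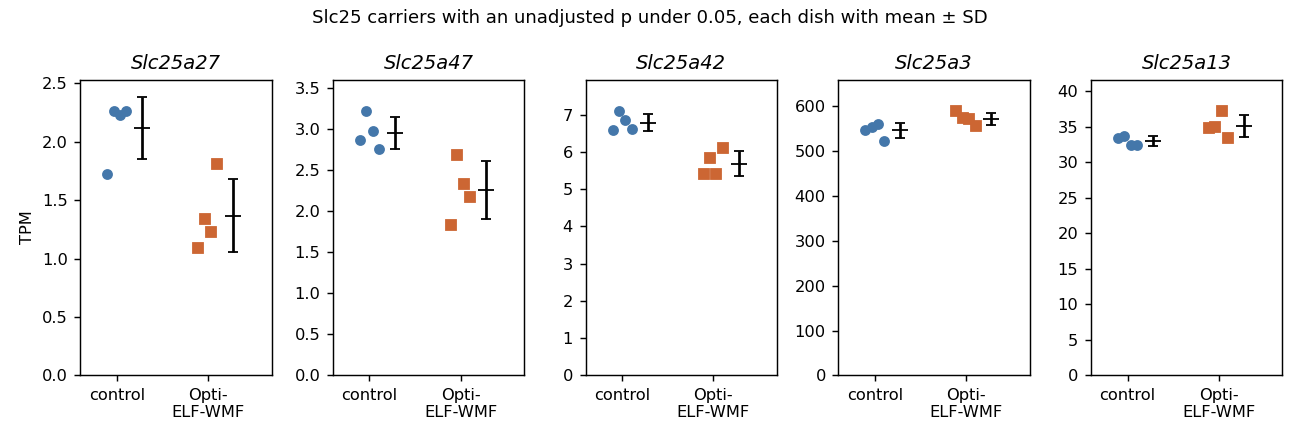
TPM in each dish for the 5 members with an unadjusted p under 0.05, with circles for control, squares for Opti-ELF-WMF, and bars for the mean ± SD of 4 dishes; each axis starts at 0. The groups separate for Slc25a47 and Slc25a42 and overlap by 1 or 2 dishes for Slc25a27, Slc25a3 and Slc25a13.

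Over the 36 tested members the differences were small and close to those of all genes. They were above 0 for 23 members (63.9%) and below 0 for 13, and 63.7% of all tested genes were above 0. The median difference was 0.023 for members and 0.026 for all tested genes on the log2 scale. A difference within 0.1 of 0 in either direction was found for 32 members, and for 29 members the whole 95% interval lay within 0.25 of 0. The median SE was 0.054 for members and 0.055 for all tested genes, so the members were measured about as closely as other genes. The coefficient of variation over dishes had a median of 4.17% in control and 5.26% in exposed dishes, and 28 members were under 10% in both.

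**Figure D3:**
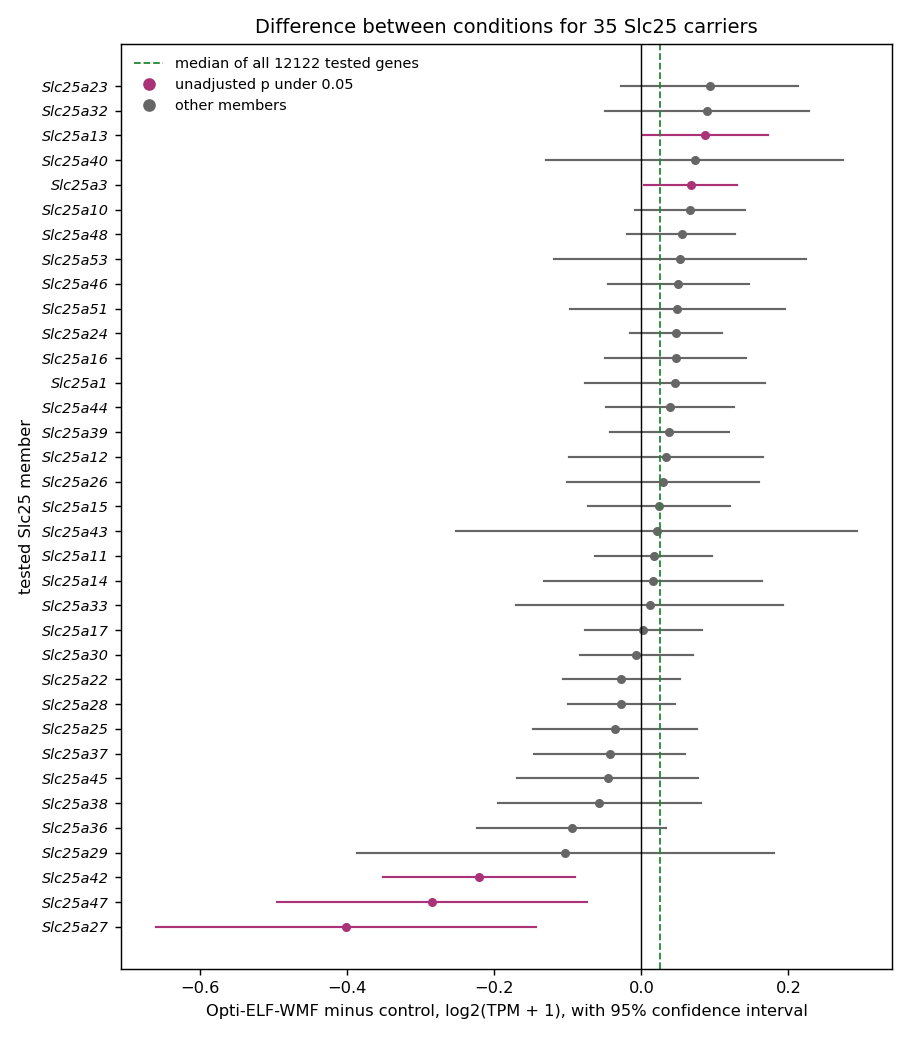
Difference between Opti-ELF-WMF and control on the log2(TPM + 1) scale for 35 tested members, with 95% confidence intervals, a solid line at 0 and a dashed line at the median of all 12122 tested genes. Most members lie around the dashed line at 0.026, and Slc25a42, Slc25a47 and Slc25a27 lie below 0 with their whole intervals.

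The summed TPM of the 44 members was 1894.1, 1877.07, 1898.26 and 1885.94 in control and 1941.65, 1972.98, 1933.97 and 1908.4 in exposed dishes. All exposed dishes lay above all controls, at 1939 ± 27 against 1889 ± 9.4 TPM. This difference of 50.4 TPM became 11.4 TPM with median-of-ratios scaling, 5.6 TPM with upper-quartile scaling and 11.7 TPM after rescaling without mitochondrial genes. The 44 members took between 0.188% and 0.190% of all TPM in control and between 0.191% and 0.197% in exposed dishes. Of the carriers left out by the rule, Slc25a5 averaged 1475 TPM, Slc25a4 323 TPM and Slc25a20 18.2 TPM over all dishes. Slc25a3 alone made up 27.8% to 29.5% of the members' sum in control and 29.1% to 30.3% in exposed dishes. Without Slc25a3 the sums were 1342 ± 17 and 1367 ± 21 TPM, and the groups overlapped, because control dish 4 reached 1362.01 TPM and exposed dish 1 only 1352.83 TPM.

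Since TPM are shares, the members were also compared after other scalings. The median of all tested genes moved from 0.026 to -0.001 with median-of-ratios scaling, to -0.005 with upper-quartile scaling, and to -0.002 with TPM rescaled without the genes of the mitochondrial genome. The median of the members moved with it, from 0.023 to -0.003, -0.006 and -0.003. Members above and below 0 became 17 and 19, 16 and 20, and 17 and 19. The higher levels of Slc25a3 and Slc25a13 did not keep an unadjusted p under 0.05 under any of these scalings, with differences of 0.03 to 0.04 for Slc25a3 (p from 0.198 to 0.333, limma across all genes) and of 0.05 to 0.06 for Slc25a13 (p from 0.16 to 0.203). Slc25a3 also lost that p when any of 5 dishes was left out, and Slc25a13 when any of 6 was. The lower levels kept it: the differences were -0.25 for Slc25a42 and -0.31 for Slc25a47 under each, and -0.42 to -0.43 for Slc25a27, with adjusted p-values between 0.199 and 0.282. These 3 of 36 members, 8.33%, stood beside 5.58% to 6.61% of all genes lower at that level under these scalings.

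**Figure D4:**
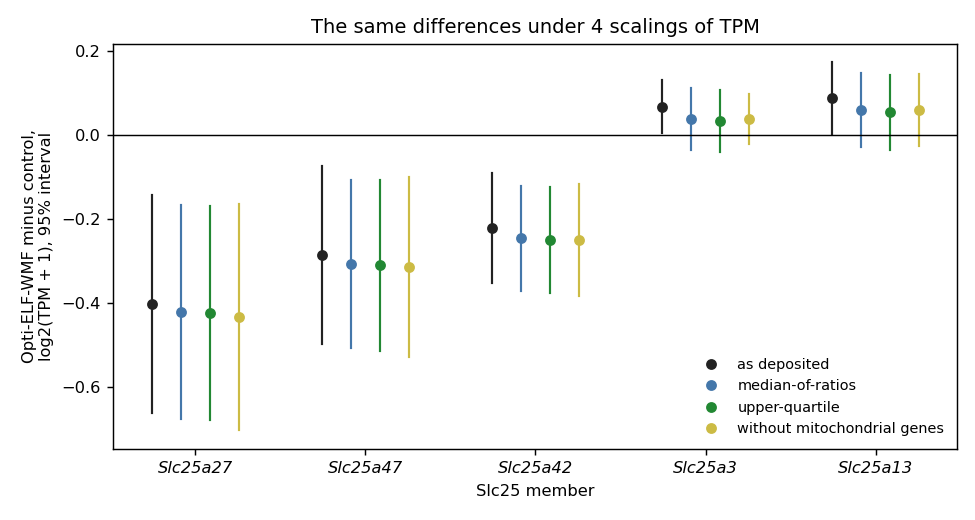
Difference between Opti-ELF-WMF and control on the log2(TPM + 1) scale, with 95% confidence intervals, for 5 members under 4 scalings of TPM. The intervals of Slc25a27, Slc25a47 and Slc25a42 stay below 0 under each scaling, and those of Slc25a3 and Slc25a13 include 0 under every scaling other than TPM as deposited.

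The genes around the carriers were read from lists of their pathways, and none of these genes passed the test at an adjusted p under 0.05 either. The counts that follow are of genes at an unadjusted p under 0.05, a level at which 12.0% of all tested genes were higher and 3.65% lower with TPM as deposited, and 4.85% to 5.72% higher and 5.58% to 6.61% lower under the other scalings. Of 9 enzymes of the malate-aspartate shuttle and of citrate use, 6 were higher in exposed dishes at an unadjusted p under 0.05 and 0 lower, with a median difference of 0.073 on the log2 scale. Mdh2, the matrix malate dehydrogenase, ranged from 392.67 to 405.08 TPM in control and from 419.16 to 448.56 TPM in exposed dishes. Got2, the matrix aspartate aminotransferase, ranged from 152.52 to 159.54 and from 163.23 to 173.49 TPM. Me1, the cytosolic malic enzyme, ranged from 290.77 to 301.37 and from 304.80 to 322.59 TPM. These 3 were without overlap, with differences of 0.11, 0.11 and 0.10 on the log2 scale and adjusted p-values of 0.122, 0.134 and 0.139 by limma. After each of the other scalings they were the 3 of the 9 left at an unadjusted p under 0.05, while the median of the list became 0.043, 0.039 and 0.043. The genes of the list without overlap went from 5 to 3, 1 and 2. With TPM as deposited 9.87% of all tested genes were without overlap, and that share under the other scalings is not given here. With all 8 dishes, the carriers tied to these enzymes, Slc25a1, Slc25a10, Slc25a11 and Slc25a12, had no unadjusted p under 0.05. Slc25a13 had one only with TPM as deposited. Slc25a1 and Slc25a10 each reached that level in 1 of 8 fits without 1 dish. The limma p-values were 0.0479 without exposed dish 4 and 0.0419 without exposed dish 3.

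One-carbon folate enzymes, which work with the folate that Slc25a32 carries, had 4 of 9 higher and 0 lower at an unadjusted p under 0.05. The cytosolic serine hydroxymethyltransferase Shmt1 ranged from 79.96 to 84.95 TPM in control and from 90.39 to 97.02 TPM in exposed dishes, a difference of 0.19 on the log2 scale (adjusted p = 0.122 by limma), and the difference remained between 0.156 and 0.160 under the other scalings. Mthfd1l, the mitochondrial formate-forming enzyme, ranged from 39.95 to 41.85 and from 43.35 to 49.07 TPM, also without overlap, with a difference of 0.16. Slc25a32 itself had a difference of 0.09 on the log2 scale (95% interval -0.049 to 0.228). Of the urea cycle and ornithine enzymes 4 of 9 were tested, with Otc, Cps1 and Arg1 all below 1 TPM in every dish, and 3 were higher. Oat, ornithine aminotransferase, ranged from 180.02 to 189.10 and from 194.32 to 201.24 TPM, and Odc1, ornithine decarboxylase, from 202.94 to 212.71 and from 215.96 to 223.84 TPM. Neither overlapped between groups, with differences of 0.09 on the log2 scale for both, while the ornithine carrier Slc25a15 did overlap. Of these 4 tested genes 1 or 2 stayed at an unadjusted p under 0.05 under the other scalings, and of the 9 one-carbon genes 2 or 3.

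Of 8 tested heme synthesis genes, 1 was higher and 1 lower at an unadjusted p under 0.05. Alad, which forms porphobilinogen, ranged from 71.09 to 73.33 TPM in control and from 76.62 to 81.52 TPM in exposed dishes, and Ppox, protoporphyrinogen oxidase, from 12.20 to 13.66 and from 10.29 to 13.17 TPM. The carriers tied to this pathway, Slc25a38, Slc25a37 and Slc25a28, all overlapped. The median of the heme list, 0.015, turned to between -0.014 and -0.018 under the other scalings. In the TIM22 import route 2 of 10 genes were higher at an unadjusted p under 0.05 and 0 lower, led by the small chaperone Timm10 at 53.1 ± 1.7 and 60.0 ± 4.6 TPM (0.17 on the log2 scale, adjusted p = 0.175 by limma). Under the other scalings 1 was higher, again Timm10, and under median-of-ratios and upper-quartile scaling 1 was lower, Timm9. Family members that carry other symbols had 3 of 3 tested genes higher at an unadjusted p under 0.05, namely Mtch1, Mtch2 and Ucp2, with Ucp1 and Ucp3 at or near 0. Mtch1 ranged from 206.22 to 212.71 TPM in control and from 218.74 to 230.78 TPM in exposed dishes without overlap, and was the only one of the 3 with an unadjusted p under 0.05 after each of the other scalings. In branched-chain amino acid breakdown 1 of 5 tested genes was higher at that level, Bckdk, the kinase that restrains this pathway, from 55.38 to 56.39 TPM in control and from 57.13 to 60.24 TPM in exposed dishes, with an unadjusted p of 0.011 (adjusted p = 0.184 by limma). Bckdk kept an unadjusted p under 0.05 with median-of-ratios scaling but not with upper-quartile scaling (0.0555, limma) or without mitochondrial genes (0.0712), and the list's median of 0.021 was within 0.003 of 0 under these scalings. No gene had an unadjusted p under 0.05 among 14 other inner-membrane transporters, 4 glutathione synthesis genes, and 13 genes that supply coenzyme A, NAD and related cofactors, and the medians of these lists were 0.024, 0.043 and 0.053. The first of these turned to between -0.005 and -0.009 under the other scalings, and the other two stayed above 0.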

How the data were processed

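RNA from 4 control and 4 exposed dishes of AML12 cells was made into stranded, poly(A)-selected libraries and sequenced as paired reads on a NovaSeq. The submitters' processing notes name Trimmomatic 0.39, STAR 2.7.4a, RSEM 1.3.3 and mm10. The authors deposited TPM, with 1 table of 55401 genes per dish. The annotation release is not given in the sources used here.

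Genes with TPM of at least 1 in at least 4 dishes were tested (12122 genes) with limma 3.58.1 in R 4.3.3 on log2(TPM + 1), using lmFit, eBayes with a trend, and Benjamini-Hochberg adjustment over all tested genes. The procedure was tested on simulated data. GENCODE M21 (GRCm38), which matched 55141 gene identifiers, gave positions. Transcripts were compared by BLAST at 95% identity or more over 150 bases or more. Members with per-dish values were the 8 most abundant, those with an unadjusted p under 0.05 or without overlap, and related pairs; for Slc25a29 they are given as the neighbour of Slc25a47. One tested member is included in all counts but is not reported here by itself. The members, gene lists and motifs were chosen with earlier results of these data known. The fits were repeated with a pseudocount of 0.1, with 2 other filters and 3 other scalings, without the trend, with the replicate number as a block, and without each dish in turn.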

Additional observations from a re-analysis of the deposited data

Results flagged for a closer look

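In 4 of 74 groups of 4 dishes checked, 1 dish stood far from the other 3 by Dixon's test at the 95% level. Chance gives about 1 in 20, which is 3.7 groups here. Control dish 3 was low for Slc25a12, at 26.9 TPM with the others between 30.89 and 31.3 TPM. Control dish 3 was also low for Slc25a45, at 20.7 TPM beside 21.95 to 22.14 TPM, and for Slc25a16, at 14.32 TPM beside 14.78 to 14.87 TPM. For Slc25a27, control dish 1 was low, at 1.72 TPM beside 2.23 to 2.26 TPM, and without it the groups of Slc25a27 do not overlap.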

How the results depend on the processing

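Limma tested 36 members, or 43 with TPM above 0 in at least 1 dish as the filter, and called 0 under each of the 16 alternatives. The 3 lower members, Slc25a42, Slc25a47 and Slc25a27, kept their direction and an unadjusted p under 0.05 in all of them, with largest p-values of 0.0144, 0.0403 and 0.0194 and smallest adjusted p-values of 0.132, 0.17 and 0.133 (limma). By mean TPM these 3 ranked 31, 34 and 36 among the 36 tested members. The number of members higher at that level was 2 as reported, 0 under median-of-ratios scaling, upper-quartile scaling, rescaling without mitochondrial genes and eBayes without a trend, and between 0 and 3 when 1 dish was left out (0 without control dish 1, control dish 4 or exposed dish 2, and 1 without control dish 3 or exposed dish 3). The number lower was 3 to 4 without 1 dish, with Slc25a36 as the fourth without control dish 1. Members without overlap numbered 2 to 6 without 1 dish, with 4 without control dish 1, 6 without exposed dish 1 and 5 without exposed dish 4, where fewer dishes make separation easier. The share of all genes without overlap is not given for these fits. Same-numbered dishes did not deviate together (r from -0.0419 to 0.0258), and with the replicate number as a block 1 member was higher.

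Over all genes, 0 were called as reported, where 1894 had an unadjusted p under 0.05, and 1 was called with TPM of at least 1 in every dish, under median-of-ratios or upper-quartile scaling, or without a trend, which was 1110028F11Rik each time. Leaving out 1 dish gave 0 to 2 (2 without control dish 2, Fgfr3 and Gm15446, and 1 without control dish 3, Gm7329); these genes were picked after their values were seen. The median member difference was 0.0228 as reported, -0.0062 under upper-quartile scaling and 0.0121 to 0.0333 without 1 dish. The difference in summed TPM, 50.4 as reported, became 11.4, 5.6 and 11.7 under median-of-ratios, upper-quartile and mitochondria-free scaling, and 39.2 to 60.7 without 1 dish. Under the same 3 scalings, differences near 0 changed sign to -0.0125, -0.0168 and -0.0129 for Slc25a11, -0.027, -0.0313 and -0.0274 for Slc25a17, and -0.0154, -0.0194 and -0.0158 for Slc25a33. Without 1 dish they ran from -0.0081 to 0.0433 for Slc25a11, -0.0166 to 0.0665 for Slc25a12, -0.0246 to 0.0255 for Slc25a17, and -0.0361 to 0.0831 for Slc25a33. The cause of these changes was not tested.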
